A study of Mus musculus with 8 samples.

Results

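The 10 symbols that make up the heat shock proteins and chaperones described here were *Hspa1a*, *Hspa1b*, *Hspa8*, *Hsph1*, *Dnajb1*, *Hspb1*, *Hsp90aa1*, *Hsp90ab1*, *Hspa5* and *Hsf1*. They were taken as a list of symbols, which was drawn up with earlier results of these data known, and found on the arrays through the RefSeq accession of each probe. Of the 10 genes, 9 had a probe, and the 12 probes of these 9 genes were all tested, among 15112 tested genes of 20660 named genes on the array. *Hspa1b* had no probe under its own accession and was not analysed here. The arrays were run on hippocampal RNA from adult male Muta Mouse, a transgenic mutation reporter strain, at 9 weeks of age. The exposed group had received benzo[*a*]pyrene (BaP), a polycyclic aromatic hydrocarbon, in olive oil by oral gavage at 70 mg/kg bw on each of 3 days, and the controls had received the oil alone. Tissue was collected 24 hr after the final dose in both groups. The mice were under isoflurane, and a cardiac puncture, which the methods name and the labels do not, came before cervical dislocation. Each group held 5 animals in the study, of which 4 per group were hybridized, and the question was which transcripts differ in the hippocampus after exposure.

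Cells keep their proteins folded with ATP-driven chaperones of the HSP70 and HSP90 families, J-domain partners that load HSP70, and small heat shock proteins that hold unfolded chains. When unfolded protein accumulates in the cytosol, heat shock factor 1 is released from chaperones, binds heat shock elements in the promoters of these genes and raises their transcription, while the endoplasmic reticulum has a separate response through its own elements. Transcripts of the inducible members are known to follow body temperature, and HSP90 also holds the aryl hydrocarbon receptor, the receptor for BaP, in the cytosol until a ligand binds.

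Promoter sequences of the members are shown because such elements are how both responses are known to reach these genes. RefSeq windows of GRCm38.p6 were at hand for 6 of the 10 symbols, and each was read over the 250 bases that end just before an annotated transcript start, on the coding strand from 5′ to 3′. Capitals mark a heat shock element core, written as GAANNTTC or TTCNNGAA, or an endoplasmic reticulum stress element, written as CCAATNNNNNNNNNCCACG. All motifs were searched on both strands, and the cores read the same on either.
*Hspa1a*, chr17:34972157-34972406, minus strand: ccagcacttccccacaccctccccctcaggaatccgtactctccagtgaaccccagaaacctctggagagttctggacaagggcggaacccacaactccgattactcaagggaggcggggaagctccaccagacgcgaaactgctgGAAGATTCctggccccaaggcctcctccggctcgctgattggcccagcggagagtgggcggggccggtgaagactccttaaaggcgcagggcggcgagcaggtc
*Hsph1*, chr5:149636337-149636586, minus strand: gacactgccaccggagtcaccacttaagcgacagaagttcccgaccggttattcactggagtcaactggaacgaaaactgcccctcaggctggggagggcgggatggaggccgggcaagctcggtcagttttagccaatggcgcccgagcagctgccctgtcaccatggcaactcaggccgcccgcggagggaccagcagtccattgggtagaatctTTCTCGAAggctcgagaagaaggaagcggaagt
*Hspb1*, chr5:135887669-135887918, plus strand: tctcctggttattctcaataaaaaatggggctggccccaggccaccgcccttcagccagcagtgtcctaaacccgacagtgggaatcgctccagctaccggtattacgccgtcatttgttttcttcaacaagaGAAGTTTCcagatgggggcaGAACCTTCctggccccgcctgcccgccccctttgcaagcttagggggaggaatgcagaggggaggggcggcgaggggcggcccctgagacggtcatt
*Dnajb1*, chr8:83607925-83608174, plus strand: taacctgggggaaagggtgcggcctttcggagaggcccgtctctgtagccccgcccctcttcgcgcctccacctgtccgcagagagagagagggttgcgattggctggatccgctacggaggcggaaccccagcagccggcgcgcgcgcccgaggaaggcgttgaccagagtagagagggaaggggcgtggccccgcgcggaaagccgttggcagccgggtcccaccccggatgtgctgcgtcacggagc
*Hspa5*, chr2:34771840-34772089, plus strand: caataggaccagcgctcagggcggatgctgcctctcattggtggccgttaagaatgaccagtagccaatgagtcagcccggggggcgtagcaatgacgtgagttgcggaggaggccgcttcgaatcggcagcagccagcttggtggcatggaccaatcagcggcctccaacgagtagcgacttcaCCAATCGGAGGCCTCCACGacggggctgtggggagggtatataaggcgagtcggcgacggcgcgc

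The head-to-head core GAAGATTC lay 104 to 97 bases before the *Hspa1a* start. *Hspb1* held 2 head-to-head cores, GAAGTTTC at 117 to 110 and GAACCTTC at 97 to 90 bases before its start. *Hsph1* held a tail-to-tail core, TTCTCGAA, at 33 to 26 bases before the start of the window shown, and its other window, which overlaps this one, contains the same core. The *Hspa5* window held the stress element, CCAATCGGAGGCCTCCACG, at 65 to 47 bases before the start. Neither of the *Dnajb1* windows contained these letters. Over 32851 windows of the same length, a head-to-head core occurred in 6.69%, a tail-to-tail core in 7.17%, either of them in 12.8% and the stress element in 0.113%. The windows of *Hspa1a* and *Hspa1b* were identical at 247 of 250 bases (98.8%), and *Hspa1b* held the same core at the same position. *Hspa8*, *Hsp90aa1*, *Hsp90ab1* and *Hsf1* are named without a window. A match is a run of letters and was not tested as a binding site.

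Every value for a mouse is a log2 ratio of Cy5, which carried that mouse's RNA, over Cy3, which carried a universal mouse reference RNA, with no dye swap. All 8 arrays lay on 1 slide, with a median Cy5 signal of 108 to 174 over a background of 67 to 71, and 56.6% to 67.4% of spots were well above background. Outlier marks were most frequent in control mouse 1 (1483 spots), but no spot of a member was marked as an outlier on any array. The title and the source name of 4 arrays name opposite groups. The sample numbers in the labels follow the titles, in that the mice titled as controls carry consecutive numbers and those titled as BaP all carry higher ones. The titles were used for every value, and values by source name are given beside those of each member. The tissue carried neuronal markers in all mice. Their mean log2 ratio over 12 genes was 4.30 to 4.43 in controls and 4.35 to 4.56 in BaP-exposed mice. This mean does not tell which brain region the neurons came from. The 10 choroid plexus markers were all higher on average after BaP (median log2 fold change 0.84), with overlapping list means of 2.03 to 3.76 in controls and 1.502 to 4.89 in BaP-exposed mice, and 0 of the 10 passed the adjusted test. Of 9 erythroid markers, 8 had a lower mean in BaP-exposed mice (7 under median centring) and 2 passed the adjusted test with a fold change of 1.5, which 0.0092% of all tested probes did. They were *Hbb-bs*, a beta-globin gene, at a log2 fold change of -1.90 (limma adjusted p = 0.00217) and *Alas2*, of heme synthesis, at -1.05 (limma adjusted p = 0.0491). With the scanner software's log ratio neither passed, at -0.26 and -0.40, and by source name they were at -0.11 and 0.01. *Alas2* did not pass under median centring either (limma adjusted p = 0.158). The erythroid list had means of 3.86 to 3.98 in controls and 3.17 to 3.40 in BaP-exposed mice. Astrocyte markers had a lower mean in BaP-exposed mice for 6 of 7 under loess and for 0 of 7 under median centring, with list means of 4.45 to 4.75 in controls and 4.38 to 4.59 in BaP-exposed mice. The list means of 7 oligodendrocyte, 7 microglial, 8 endothelial and 6 thalamic markers overlapped between the groups. Of the endothelial markers, *Slc2a1* at 0.58 and *Cldn5* at -0.56 did not overlap between the groups, as for 2.59% of all tested probes in the higher and 2.48% in the lower direction. With the scanner software's log ratio they were at 0.57 and -0.11, with the authors' log2 ratios at 0.60 and -0.49, with median centring at 0.81 and -0.27, and by source name at 0.0282 and 0.0560. The thalamic list read 0.75 to 1.19 in controls and 0.51 to 1.23 in BaP-exposed mice. Control means of its single genes ran from -1.81 for *Prkcd* to 5.47 for *Zic1*, with *Slc17a6* at 3.06. The part of these differences in the values of the chaperones was not tested.

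In BaP-exposed mice, all 9 measured chaperone genes had a lower mean log2 ratio than in controls, under loess normalization within arrays, and 0 of the 9 passed an adjusted p of 0.05 with a fold change of 1.5. When each array was instead centred on its median, which places the median of all tested probes 0.17 above 0, the mean was lower for only 2 of the 9, *Dnajb1* and *Hspb1*. Grouped by source name under loess, 6 of the 9 had a lower mean, and over the 4 mice with agreeing labels all 9 did, *Hspa1a* by -0.00396. *Dnajb1*, the J-domain partner of HSP70, showed the largest difference of the 9 under loess, at -0.41 (SE 0.0861), and was the only member whose 4 BaP-exposed mice all lay below all 4 controls. *Hspb1*, *Hspa5*, *Hsf1* and *Hsp90aa1* lay between -0.31 and -0.23, and *Hsp90ab1*, *Hsph1* and *Hspa1a* were within 1 SE of 0. The median of the 9 log2 fold changes was -0.23, beside -0.00157 over the 32624 tested probes, and under median centring it was 0.04 beside 0.17. In bulk tissue, fewer cells that express a gene and less RNA of that gene per cell cannot be told apart.

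Among all tested probes, 0.0092% passed the adjusted test with a fold change of 1.5, which were 3 probes, none of them a member's. The lowest adjusted p of a member was 0.358 (limma). A log2 fold change below 0 was found for 9 of 9 members and for 50.5% of tested probes. Groups did not overlap, with BaP lower, for 1 of 9 members and for 2.48% of probes, and with BaP higher for 0 of 9 members and for 2.59% of probes. At an unadjusted p of 0.05 in limma, 4 of 9 members were lower, against 4.04% of probes, and 0 were higher, against 4.66% of probes. Those 4 were *Dnajb1*, *Hspb1*, *Hspa5* and *Hsp90aa1*. The smallest p an exact permutation test over the 70 assignments of 8 mice can give is 0.0286. The labels name separate mice, each on 1 array, so the spread joins differences between animals with those of handling and array.

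**Figure D1:**
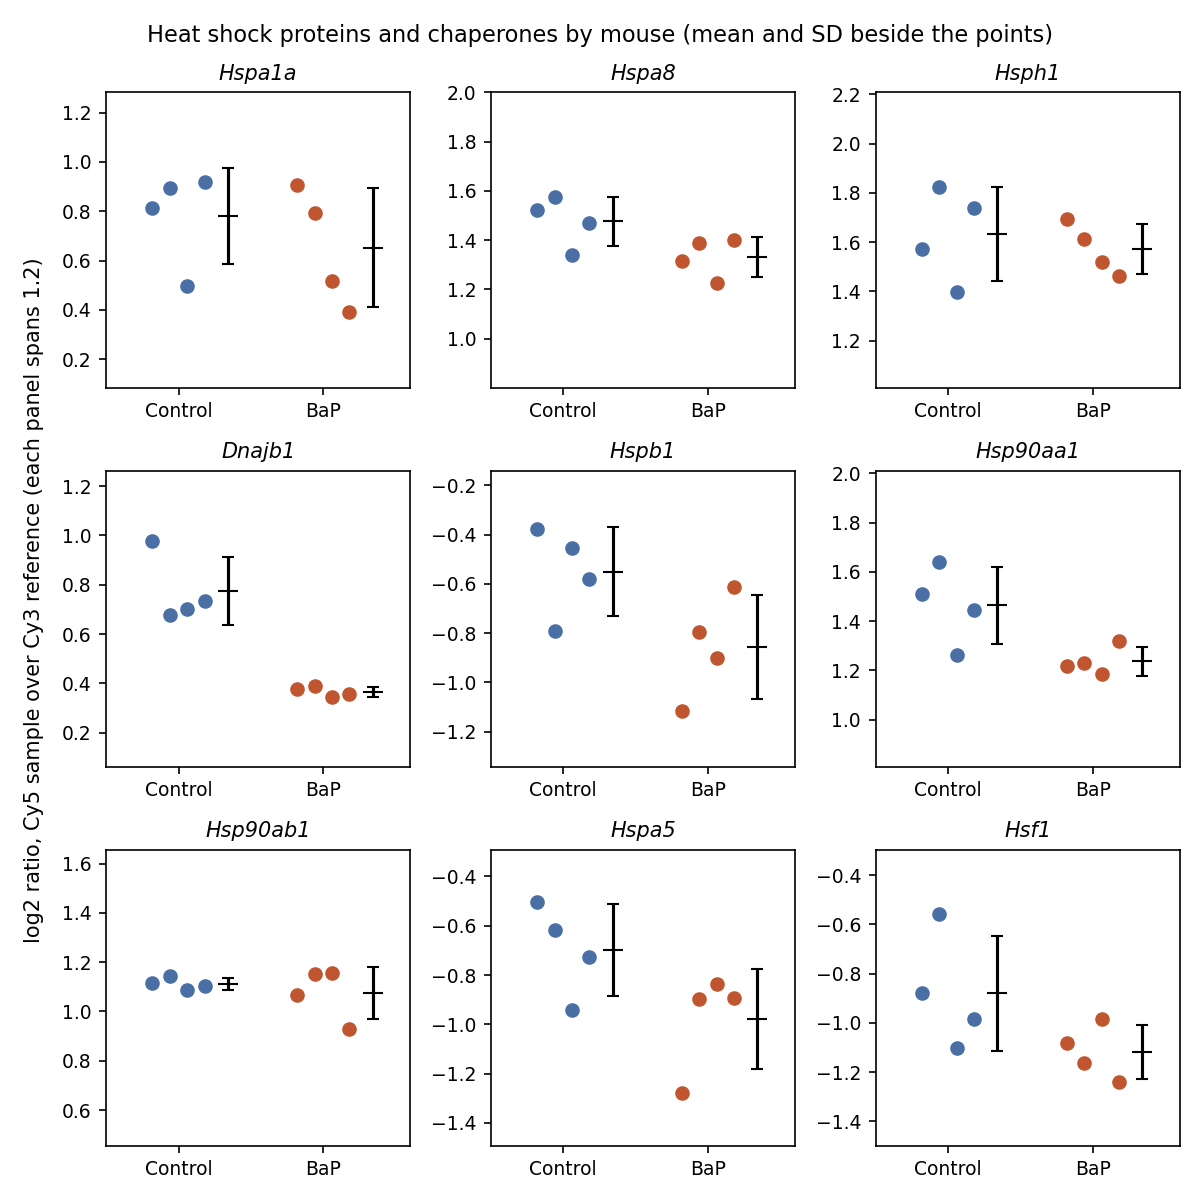
Log2 ratio of Cy5 sample over Cy3 reference (vertical axis) in each control and BaP-exposed mouse for the brightest probe of 9 genes, under loess; points are mice in order of their numbers, 4 per group, bars are the mean and SD, and every panel spans the same log2 range. *Dnajb1* is the only gene whose groups are apart, with controls from 0.68 to 0.98 and BaP-exposed mice from 0.34 to 0.39. Under median centring the mean is lower in BaP-exposed mice for *Dnajb1* and *Hspb1* only.

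A group of members, *Hspa8*, *Hspa1a* and *Hsph1*, belongs to the HSP70 and HSP110 machinery itself. *Hspa8* encodes the constitutive HSC70, which carries out folding and clathrin uncoating and is abundant in neurons. The brightest of its 3 probes read 1.52, 1.57, 1.34 and 1.47 in control mice 1 to 4 and 1.31, 1.39, 1.23 and 1.40 in BaP-exposed mice 1 to 4. Exposed mice 1 and 3 lay below every control, exposed mice 2 and 4 lay inside the control range, and the groups overlapped. The log2 fold change was -0.14 (SE 0.0832, adjusted p = 0.640 from limma, exact permutation p = 0.0857, 2-sided), and the other 2 probes gave -0.05 and -0.14. Grouped by source name, the brightest probe gave -0.05.

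*Hspa1a* encodes the stress-inducible HSP70. Its control values were 0.82, 0.90, 0.50 and 0.92, and its BaP values were 0.91, 0.79, 0.52 and 0.39. The spread within each group (SD 0.195 and 0.240, n = 4 each) exceeded the difference of -0.13 (SE 0.137, adjusted p = 0.7999 from limma), and grouped by source name the difference was 0.13. It was -0.00396 in the first row of the slide and -0.25 in the second, -0.26 with quantile-normalized Cy5 alone, and between -0.22 and -0.04 without 1 mouse. The raw Cy5 signal of this probe was 216 to 403 before background correction. *Hspa1a* and *Hspa1b* are near-identical copies, and whether this probe also detects *Hspa1b* was not tested. *Hsph1* encodes HSP110, which resets HSP70 by exchanging its nucleotide. It ranged from 1.40 to 1.82 in controls and from 1.46 to 1.69 in BaP-exposed mice, so the exposed mice lay inside the control range. Its 2 probes gave log2 fold changes of -0.06 (SE 0.106) and -0.07 (SE 0.107), and the brighter gave 0.0158 by source name.

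*Dnajb1* encodes HSP40, the J-domain protein that delivers clients to HSP70 and starts its ATP cycle. Control mice 1 to 4 had log2 ratios of 0.98, 0.68, 0.70 and 0.73, and BaP-exposed mice 1 to 4 had 0.38, 0.39, 0.34 and 0.35. The 4 exposed mice were nearly equal to each other (SD 0.0202) while the controls spread more widely (SD 0.139). The means of 0.774 and 0.366 differed by -0.41 (SE 0.0861), a ratio of 0.754 between the groups, with an exact permutation p of 0.0286, 2-sided, and an adjusted p of 0.358 in limma. The difference was -0.45 within the first row of 4 arrays on the slide and -0.37 within the second. Without 1 mouse at a time it lay between -0.44 and -0.34, and with median centring in place of loess it was -0.11. Grouped by source name it was -0.04, and over the 4 mice with agreeing labels, which are those of the first row, it was -0.45.

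*Hspb1* encodes HSP27, a small heat shock protein that also binds actin. Its values were -0.38, -0.79, -0.45 and -0.58 in controls and -1.11, -0.79, -0.90 and -0.61 in BaP-exposed mice. Control mouse 2 lay among the exposed mice, and exposed mouse 4 lay among the controls. The log2 fold change was -0.31 (SE 0.126, adjusted p = 0.548 from limma, exact permutation p = 0.0571, 2-sided). With median centring it was -0.00341, and grouped by source name it was -0.06.

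The cytosolic HSP90 proteins come from a pair of genes. *Hsp90aa1*, the more stress-responsive of the pair, read 1.51, 1.64, 1.26 and 1.45 in controls and 1.22, 1.23, 1.18 and 1.32 in BaP-exposed mice. All but 1 of the controls lay above every exposed mouse, and control mouse 3, at 1.26, lay below exposed mouse 4. The log2 fold change was -0.23 (SE 0.0932, adjusted p = 0.548 from limma, exact permutation p = 0.0571, 2-sided), with -0.35 in the first row of the slide and -0.10 in the second, and -0.13 by source name. *Hsp90ab1*, the constitutive gene, ranged from 1.09 to 1.15 in controls (SD 0.0245) and from 0.93 to 1.16 in BaP-exposed mice (SD 0.106). Its log2 fold change was -0.04 (SE 0.0790, exact permutation p = 0.686, 2-sided) and 0.0149 by source name. The difference between these log2 fold changes of the pair was not tested.

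*Hspa5* encodes BiP, the HSP70 of the endoplasmic reticulum and a main target of the unfolded protein response. Controls read -0.51, -0.62, -0.94 and -0.73 and BaP-exposed mice -1.28, -0.90, -0.84 and -0.89. Exposed mouse 1 stood apart at the low end, and the other exposed mice lay within the range of the controls. The log2 fold change was -0.28 (SE 0.126, adjusted p = 0.574 from limma, exact permutation p = 0.114, 2-sided) and -0.18 without exposed mouse 1. It was -0.53 in the first row of the slide, -0.03 in the second and -0.25 by source name.

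*Hsf1* encodes the transcription factor of the cytosolic heat shock response, which is governed largely at the protein level. Its controls read -0.88, -0.56, -1.10 and -0.98 and its BaP values were -1.08, -1.16, -0.98 and -1.24. The groups overlapped, and control mouse 2 stood highest. The log2 fold change was -0.24 (SE 0.120, adjusted p = 0.599 from limma, exact permutation p = 0.143, 2-sided), with -0.41 in the first row of the slide, -0.07 in the second and -0.17 by source name. Without control mouse 2 it was -0.13, and without any other single mouse it was between -0.31 and -0.20.

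**Figure D2:**
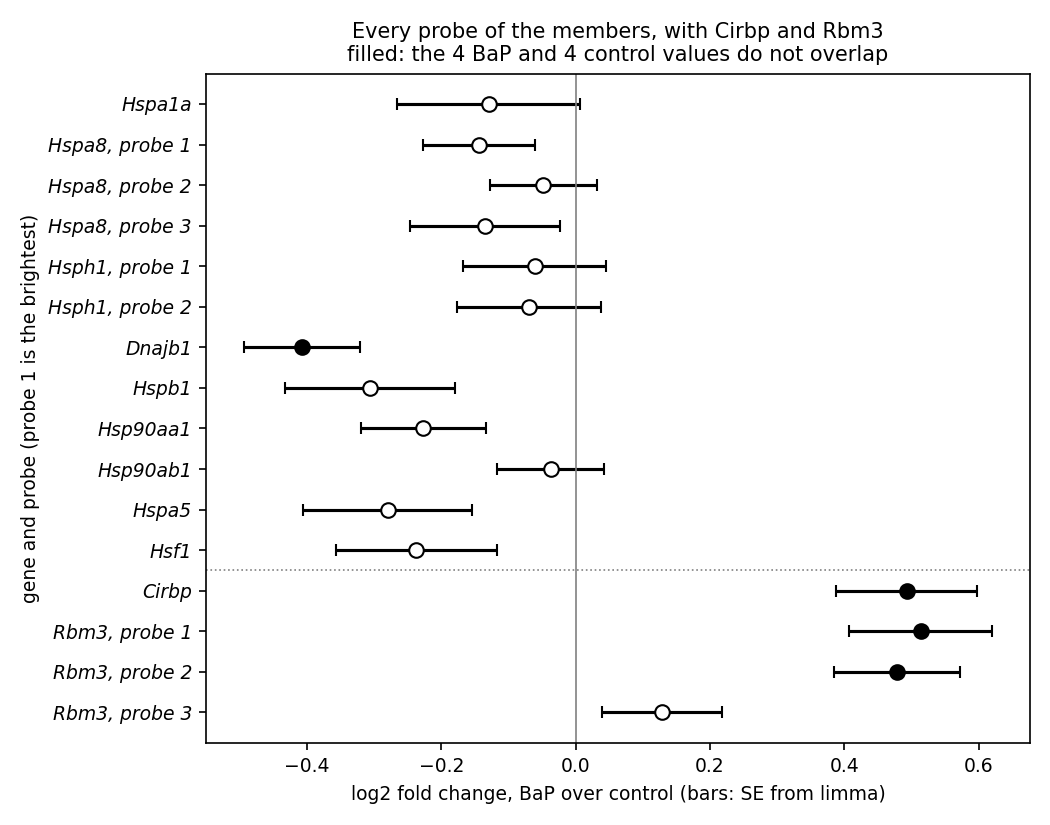
Log2 fold change of BaP over control with its SE from limma (horizontal axis) for the 12 probes of the members and, below the dotted line, for the probes of *Cirbp* and *Rbm3*, under loess; filled points mark probes whose groups do not overlap. All 12 member probes lie below 0, from -0.41 for *Dnajb1* to -0.04 for *Hsp90ab1*, while under median centring 7 of the 9 genes lie above 0.

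Because the arrays carry a trend with brightness, each member was also set against the 1000 tested probes nearest to it in brightness. Under loess those neighbours had median log2 fold changes near 0, from -0.05 to 0.01, and under median centring from 0.16 to 0.26. Relative to its neighbours, *Dnajb1* was -0.39 under loess and -0.36 under median centring. *Hspb1* was -0.29 and -0.26, *Hspa5* -0.25 and -0.23, *Hsf1* -0.23 and -0.22, and *Hsp90aa1* -0.19 and -0.19. Of the 9 genes, 8 were below their neighbours under both scalings, and *Hsp90ab1* was 0.01 above them under both. In the Cy3 channel, which holds the same reference RNA on every array, the members' median-centred log2 signal differed between groups by -0.14 for *Hspa1a* to 0.01 for *Hspa8*, and by -0.02 for *Dnajb1*. The Cy5 signal on the same median-centred scale, without the reference, differed by -0.17 for *Dnajb1*, -0.15 for *Hspa1a*, -0.12 for *Hspb1* and -0.11 for *Hspa5*. It differed by -0.00433 for *Hsf1* and 0.01 for *Hsp90aa1*, and by 0.09 for *Hspa8*, 0.12 for *Hsph1* and 0.13 for *Hsp90ab1* at their brightest probes. When Cy5 was instead quantile-normalized between arrays, the differences were -0.33 for *Dnajb1*, -0.28 for *Hspb1*, -0.12 for *Hsp90aa1* and 0.0204 for *Hsp90ab1*.

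**Figure D3:**
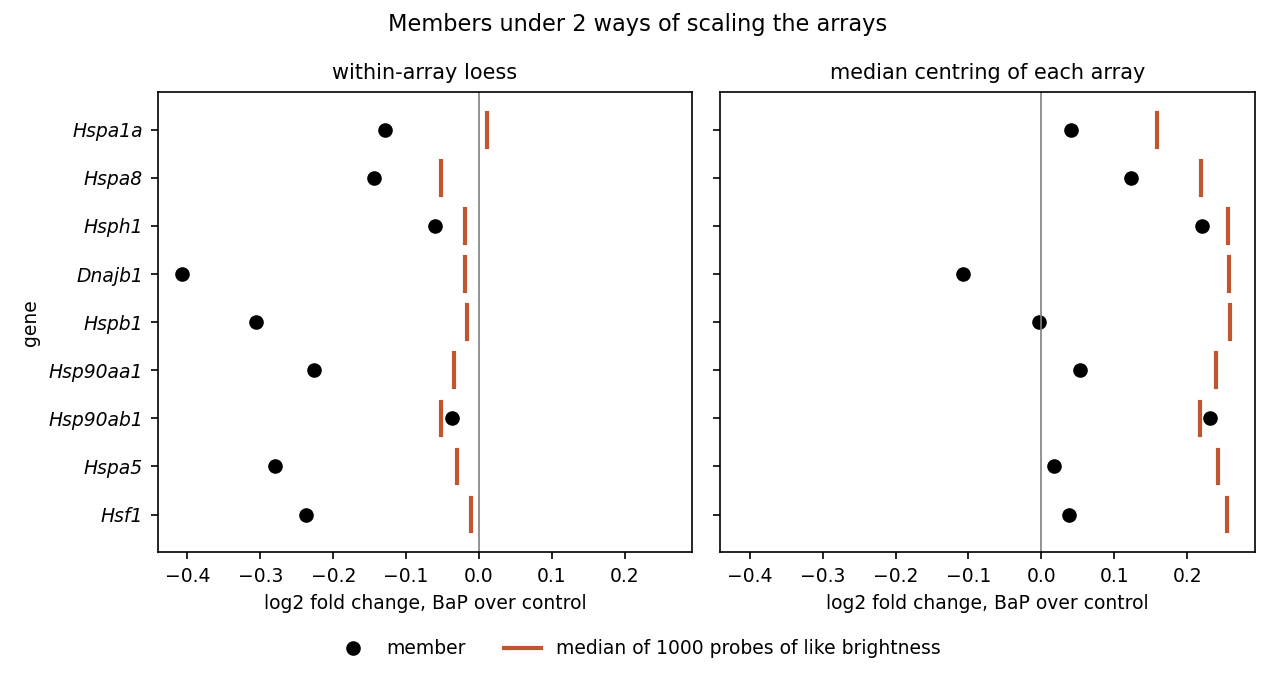
Log2 fold change of BaP over control (horizontal axis) for 9 genes under within-array loess (left) and median centring (right); points are the members and red lines the median of the 1000 tested probes of like brightness. Under loess all 9 lie below 0 and under median centring only *Dnajb1* (-0.11) and *Hspb1* (-0.00341) do. In both panels 8 of the 9 lie to the left of their red line, and the panels are alike in this by construction.

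Across the 8 mice, 33 of the 36 pairs of members had a positive Pearson r over both groups together, so that a difference between the groups enters r. After the mean of each group was subtracted, a step chosen after seeing the data, 26 of the 36 were positive. After Benjamini-Hochberg adjustment over the 36 pairs, 1 pair passed. *Hspa8* and *Hsp90aa1* had r = 0.946 (exact permutation p = 0.000124, adjusted 0.00446) and Spearman rho = 0.976 (exact permutation p = 0.000397, adjusted 0.0143), and r was 0.949 without control mouse 2 and exposed mouse 3. With group means subtracted, their r was 0.899. Without exposed mouse 1, 0 pairs passed, and 2 passed without exposed mouse 4. Under median centring, with the authors' ratios and with quantile-normalized Cy5 alone, 0 pairs passed. All members on an array share that array's scaling, and with 4 arrays in a row of the slide no value within a row was computed.

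Other chaperones and their regulators were read over 8 further lists with 108 genes, of which 103 were tested. Under loess, 47 had a higher and 56 a lower mean in BaP-exposed mice (median log2 fold change -0.00549), and under median centring 99 higher and 4 lower (median 0.26). In limma, 0 of the 103 passed the adjusted test, and at an unadjusted p of 0.05, 4 were higher (*Hspb3*, *Bag5*, *Fkbp5* and *Edem1*) and 4 lower (*Dnajb4*, *Xbp1*, *Creld2* and *Pdia6*), beside 4.66% and 4.04% of all tested probes. Groups did not overlap for 2 higher and 2 lower of the 103 genes, beside 2.59% and 2.48% of all tested probes. These counts take the brightest probe of a gene, and for *Hspa4*, an HSP110 relative named after its values were seen, the probes disagreed, with 0.05 at the brightest and -0.33, without overlap of the groups, and -0.21 at the others. All 6 tested small heat shock proteins other than *Hspb1* had a higher mean under both scalings (median 0.14 under loess and 0.31 under median centring), among them *Hspb3*, a muscle form (0.27, SE 0.115, exact permutation p = 0.0286, 2-sided). *Hspb3* was at 0.17 without exposed mouse 3, at 0.82 with the scanner software's log ratio and at -0.000145 by source name. Of 11 J-domain proteins, 8 had a lower mean under loess (median -0.08) and 2 under median centring (median 0.18). *Dnajb4*, a close relative of *Dnajb1*, was at -0.29 (SE 0.108, adjusted p = 0.522 from limma), and its BaP values, from -0.51 to -0.22, lay below all controls, with -0.10 under median centring and 0.0858 by source name. *Hspa4l*, an HSP110 relative of *Hsph1*, was at -0.14 (SE 0.0773) without overlap under loess and at 0.15 under median centring, and at -0.08 by source name.

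Among 28 endoplasmic reticulum chaperones and unfolded protein response genes, 16 had a higher mean under loess and 27 under median centring. Their medians were 0.01 and 0.28, beside -0.28 and 0.02 for *Hspa5*. *Herpud1*, part of the machinery that degrades misfolded proteins of the reticulum, was at 0.18 (SE 0.0825) without overlap of the groups, and at 0.05 by source name. At an unadjusted p of 0.05 in limma, 1 gene of this list was higher, *Edem1* at 0.26 (SE 0.111), and 3 were lower, beside the same 4.66% and 4.04% of all tested probes. Those were *Xbp1*, a transcription factor of the unfolded protein response, at -0.35 (SE 0.112), *Creld2* at -0.30 (SE 0.102) and *Pdia6*, a disulfide isomerase, at -0.27 (SE 0.0968). By source name they were at -0.0878, -0.19, -0.21 and -0.17 in that order, and under median centring at 0.51, -0.06, 0.00104 and 0.0104. A dimmer *Pdia6* probe gave -0.21 without overlap of the groups. Under loess the 20 cochaperones of HSP70 and HSP90 had a median of -0.05, the 14 subunits of the chaperonin CCT and its partner prefoldin a median of -0.02, the 10 mitochondrial chaperones a median of -0.00416 and the 7 other heat shock factors and HSF1 regulators a median of -0.02. Under median centring the medians of these lists lay between 0.22 and 0.27.

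**Figure D4:**
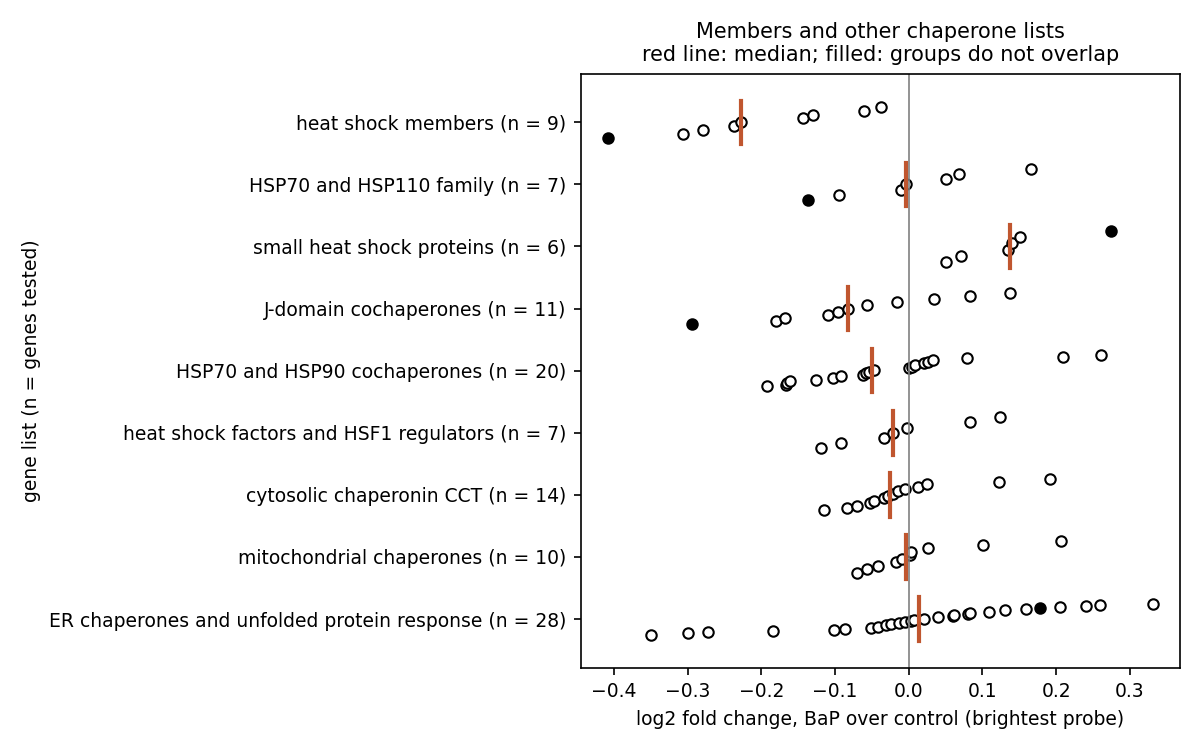
Log2 fold change of BaP over control under loess (horizontal axis) for the brightest probe of each tested gene in the members and in 8 other lists; red lines are medians and filled points are genes whose groups do not overlap. The members have a median of -0.23 and lie below 0, a direction that under median centring is kept by *Dnajb1* and *Hspb1* only, and the 8 other lists have medians from -0.08 to 0.14.

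*Cirbp* and *Rbm3*, RNA-binding proteins induced by mild cooling, are known to respond to temperature in the opposite direction to the heat shock genes and are given beside them. *Cirbp* read 0.39, 0.59, 0.89 and 0.62 in controls and 1.13, 1.14, 1.08 and 1.11 in BaP-exposed mice. *Rbm3* read -2.44, -2.39, -2.03 and -2.30 in controls and -1.87, -1.69, -1.67 and -1.88 in BaP-exposed mice. Every exposed mouse lay above every control for both genes, as for 2.59% of all tested probes. The log2 fold changes were 0.49 (SE 0.104) and 0.51 (SE 0.106), each with an exact permutation p of 0.0286, 2-sided, and adjusted p of 0.361 and 0.346 in limma, so neither passed. With median centring they were 0.73 and 0.74, and grouped by source name 0.15 and 0.12. A second *Rbm3* probe gave 0.48, and the third 0.13 with overlapping groups. Their relation to the values of the chaperones was not tested.

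Of 12 glucocorticoid-induced genes, 11 had a higher mean in BaP-exposed mice under loess and 12 under median centring, and under loess 5 did not overlap, all higher, beside 2.59% of all tested probes, with a list mean of -0.01 to 0.31 in controls and 0.43 to 0.63 in BaP-exposed mice. *Sgk1*, a kinase induced by glucocorticoids, was at 1.27 (SE 0.222, adjusted p = 0.268 from limma) and at 0.31 by source name. *Per1*, a clock gene with a glucocorticoid response, had the smallest log2 fold change of those 5, at 0.37 (SE 0.105, adjusted p = 0.487 from limma), and was at -0.0547 by source name. The others of the 5, *Nfkbia*, *Mt2* and *Klf9*, were at 0.78, 0.66 and 0.40, and by source name at 0.08, -0.0316 and 0.00919. Of 10 immediate early genes, 6 had a lower mean under loess (median -0.08) and 2 under median centring (median 0.17), all with overlapping groups under loess. At an unadjusted p of 0.05 in limma 2 of the 10 were lower and 0 higher, beside 4.04% of all tested probes lower. These were *Fos*, at a log2 fold change of -0.61 (SE 0.195, limma adjusted p = 0.497), and *Fosb*, at -0.26 (SE 0.115, limma adjusted p = 0.562), both named after their values were seen. With median centring they were at -0.31 and 0.00102, and by source name at -0.31 and -0.00684. In limma 0 genes of these lists passed the adjusted test, and their relation to the values of the chaperones was not tested.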

How the data were processed

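RNA from 8 hippocampi was hybridized to 2-color Agilent arrays. The spot tables deposited by the authors hold the intensity in both channels, background medians, outlier marks and the scanner software's log10 ratio. Log2 ratios deposited by the authors are LOWESS-normalized according to the methods. Here the median intensities were background-corrected with limma 3.58.1 (normexp, offset 50) under R 4.3.3. Control spots were then dropped, outlier spots were set to missing, ratios underwent within-array loess and the spots of each probe were averaged. A probe was tested if it was well above background in Cy5 on 4 or more arrays, which held for 32624 of 55681. The test was lmFit and eBayes, adjusted by Benjamini-Hochberg across every tested probe. The brightest probe represented its gene. Brightness was the mean log2 signal of Cy5 and Cy3, so the reference RNA enters this choice. A call needed an adjusted p of 0.05 together with a fold change of 1.5. Exact permutation tests between groups were 2-sided over 70 assignments. Those of the correlations, also 2-sided, ran over all orderings of the mice. Summaries used Python 3.11.15, pandas 2.3.3, numpy 2.4.6 and scipy 1.17.1. The fit was tested on simulated data.

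Probes were named by RefSeq accession (27235 of 28685, 94.9%) through a RefSeq table of GRCm38.p6, used for names and promoter windows. The genome build behind the array design is not given in the sources used here. The members and the gene lists were chosen with earlier results of these data known. Named genes were the members and, in each other chaperone or stress list, genes past the adjusted p and otherwise the highest and lowest whose groups did not overlap. *Xbp1*, *Creld2*, *Pdia6*, *Edem1*, *Bag5*, *Fkbp5*, *Nfkbia*, *Mt2* and *Klf9* were named after their values were seen, as members of small counts, and *Hspa4* and the cell type markers were also named after their values were seen. Other settings tried were no background correction, other scalings, the deposited ratios, other filters on dim and outlier spots, the Cy5 channel alone, blocks, other forms of the test, all probes of a gene, leaving out single mice and the other reading of the labels. The comparison with probes of like brightness was chosen after seeing the data. The number of arrays limits precision.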

Additional observations from a re-analysis of the deposited data

Results flagged for a closer look

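The *Hspa5* value of BaP-exposed mouse 1 stood far from the others of its group. It was -1.28, beside -0.90 to -0.84 in the other 3 exposed mice, and the gap to the nearest of them took up 0.868 of the group's range, above Dixon's critical value for 4 values. No spot of this probe was marked as an outlier on any array. The same mouse was the lowest exposed mouse for every choroid plexus marker. For example, *Enpp2* was at 2.18 beside 5.03 to 6.52 in the other exposed mice, and *Kcnj13* at 0.68 beside 3.77 to 5.45. The relation of this to its *Hspa5* value was not tested. *Per1*, on the glucocorticoid list, stood out in control mouse 3, at 1.22 beside 0.93 to 0.97 in the other controls, with a gap of 0.888 of the range. *Bag5*, an HSP70 cochaperone, stood out in BaP-exposed mouse 4, at 0.50 beside 0.73 to 0.74 in the other exposed mice, with a gap of 0.945 of the range. Among 66 groups of 4 values checked, these were the 3 that stood out, and chance alone would give 3.3 (1 in 20).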

How the results depend on the processing

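No member was called under any alternative. The count of probes called, 3, was 0 with the scanner software's log ratio, the gene-wise F test, groups by source name and only the 4 mice with agreeing labels, 5 without the filter on dim probes, 6 with the Cy5 channel alone after quantile normalization, 2 with the replicate block, and 1 to 3 without 1 mouse. Of the 9 members, the count lower in BaP-exposed mice was 2 under median centring and 8 or 9 without 1 mouse. Under median centring the log2 fold changes reversed to 0.0406 for *Hspa1a*, 0.12 for *Hspa8*, 0.0531 for *Hsp90aa1*, 0.23 for *Hsp90ab1*, 0.22 for *Hsph1*, 0.0172 for *Hspa5*, 0.0385 for *Hsf1*, 0.15 for *Hspa4l*, 0.00104 for *Creld2*, 0.00102 for *Fosb* and 0.0104 for *Pdia6*. The median of all tested probes was then 0.17, in place of -0.00157. *Hsp90ab1* also reversed to 0.0220 with the scanner software's ratio, 0.0460 with the authors' ratios, 0.0204 with quantile-normalized Cy5 alone, and, relative to probes of like brightness, 0.0144 under loess and 0.0137 under median centring, and ranged from -0.0642 to 0.0116 without 1 mouse. Without 1 mouse, *Hsph1* ranged from -0.14 to 0.00261. Grouped by source name, *Hspa1a* was 0.13, *Hsp90ab1* 0.0149, *Hsph1* 0.0158, *Dnajb4* 0.0858, *Per1* -0.0547, *Edem1* -0.0878, *Mt2* -0.0316, *Hspa4* -0.0216, *Cldn5* 0.0560, *Alas2* 0.0143 and *Hspb3* -0.000145. The mean of all tested probes of *Hspa4* was -0.16. The causes were not tested. Pairs of members with a correlation past the adjusted p numbered 0 under median centring, the scanner software's ratio, the authors' ratios and quantile-normalized Cy5 alone, and 0 to 2 without 1 mouse. Same-numbered mice deviated from their group means with correlations of -0.35, 0.03, -0.0074 and -0.0072. For differently numbered mice the correlations ran from -0.31 to 0.34. A shared effect of the number was thus not seen, and these values cannot show whether the mice were paired. Precision rests on 4 mice per group on 1 slide.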
